A study of Mus musculus with 8 samples.

Results

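Hes1 and 8 other genes of the Notch pathway were followed by poly(A) RNA-seq in mouse macrophages that lack endogenous Sting. The 9 members are Hes1, Hey1, Nrarp, Notch1, Notch2, Notch4, Jag1, Rbpj and Dtx4, out of 53715 genes in the deposited table. They were picked by name after Hes1 had been seen to be low in cells with the zfCTT transgene, so the level of Hes1 in zfCTT is given as a description, with no test. The 4 groups of 2 libraries are cells with a stable mSTING-zfCTT transgene (zfCTT), which by the study's design carries the C-terminal tail (CTT) of zebrafish STING, cells with mSTING-dCTT (dCTT), which lacks the tail, cells with mouse STING (mSTING), and Sting-/- cells labelled as having no transgene (no_transgene, titled MSCV2.2). The tail is the part of STING that recruits signalling proteins. All cells, controls included, are Sting-/- and had received CMA, a small molecule that activates mouse STING, at 500 µg/ml over 4 h. No library shows unstimulated cells, and a difference between groups is therefore a difference between stimulated lines. The labels name neither a clone nor separate cultures for the 2 libraries of a group, so p-values measure the spread between libraries, which may be technical.

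Notch receptors (Notch1, Notch2, Notch4) are cut after they bind a ligand such as Jag1 on a neighbouring cell. The freed intracellular part enters the nucleus and joins Rbpj, a DNA-binding protein that otherwise holds target genes in check. Hes1, Hey1 and Nrarp are classical targets: Hes1 and Hey1 encode basic helix-loop-helix repressors, and Nrarp encodes a small feedback inhibitor of the pathway. Dtx4 encodes a Deltex ubiquitin ligase. In mouse macrophages Hes1 is known to restrain inflammatory cytokines and chemokines, among them Il6, Il12b and Cxcl1.

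Depth recovered from the steps of the RPKM values (reads scaled to transcript length and library size) was 20.1 and 34.8 M reads for zfCTT, 55.7 and 171 for dCTT, 88.1 and 88.2 for mSTING and 27.7 and 101 for no_transgene. The zfCTT libraries thus include the shallowest of the 8, which matters for members near 0. Tmem173, the STING gene, read 10.6 to 22.7 RPKM in the 6 libraries with a transgene and 3.23 and 2.42 RPKM without one. Of 7 macrophage markers, 6 averaged at least 1 RPKM over the 8 libraries and Mertk did not, with a highest value of 0.374. Markers of fibroblasts, T cells, B cells, endothelium and epithelium summed to at most 0.876 RPKM per list in any library. That highest sum was reached by the endothelial list in zfCTT replicate 1, where Kdr gave 0.757. Values come from bulk RNA, so fewer cells that express a gene and less RNA per cell cannot be told apart.

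Promoter windows from RefSeq (GRCm38.p6) reach from 250 bases before to 50 after an annotated start site, and 6 of the 9 members have one. The windows of Notch1 and Rbpj are shown because the values of these members in zfCTT lay on opposite sides of those in dCTT; for Rbpj it is the first of 2 windows. Capitals mark 2 motifs searched on both strands: TGGGAA, the core of the site bound by Rbpj, and CACNAG, the N box bound by Hes proteins. The Notch1 window is chr2:26503773-26504072 (GRCm38.p6, minus strand) and the Rbpj window chr5:53590096-53590395 (plus strand), each printed 5′ to 3′ along the gene.
Notch1: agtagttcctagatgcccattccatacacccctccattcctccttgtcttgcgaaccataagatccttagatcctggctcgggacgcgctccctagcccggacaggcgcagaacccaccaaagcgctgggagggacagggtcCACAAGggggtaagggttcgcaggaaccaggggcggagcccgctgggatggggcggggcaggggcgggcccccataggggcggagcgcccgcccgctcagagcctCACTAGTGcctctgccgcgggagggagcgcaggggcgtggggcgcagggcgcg
Rbpj: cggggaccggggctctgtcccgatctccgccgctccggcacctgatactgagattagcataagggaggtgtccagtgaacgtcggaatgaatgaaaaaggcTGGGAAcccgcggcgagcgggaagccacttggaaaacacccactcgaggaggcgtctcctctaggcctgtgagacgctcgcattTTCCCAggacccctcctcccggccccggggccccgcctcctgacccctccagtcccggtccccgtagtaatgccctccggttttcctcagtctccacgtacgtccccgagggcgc
The Notch1 window holds 3 matches to CACNAG, of which 2 overlap on opposite strands at the start site, and 0 to TGGGAA. The Rbpj window holds 2 matches to TGGGAA, 1 on each strand, and 0 to CACNAG. Of all 32851 RefSeq windows of this length, 25.6% hold TGGGAA and 42.5% hold CACNAG. A match is a run of letters and does not show that a factor was bound.

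Hes1 (ENSMUSG00000022528, GRCm38 chromosome 16, 30064384 to 30067796, plus strand) was nearly lost from the zfCTT libraries. It read 0.0490 and 0.268 RPKM with zfCTT, from 2 and 19 reads. It read 3.62 and 5.47 RPKM with dCTT, 1.16 and 1.97 with mSTING, and 3.61 and 5.22 without transgene. Both zfCTT libraries lay below both mSTING libraries, which lay below all 4 libraries of dCTT and no_transgene. The dCTT and no_transgene libraries interleave.

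The counting interval of Hes1 in zfCTT (exact Poisson, 95%, counting error only) ran from 0.00593 to 0.177 RPKM in replicate 1 and from 0.161 to 0.419 in replicate 2, and neither reached the lower bound of any other library. Over pooled reads, Hes1 had 21 reads in zfCTT and 1280 in no_transgene and was 25.9-fold lower in zfCTT per read sequenced, with an interval from counting of 16.9 to 42.0. Against dCTT the pooled value was 26.7-fold lower (17.4 to 43.2) and against mSTING 8.33-fold lower (5.39 to 13.6). Replicate 2 gave 19 of the 21 pooled reads in zfCTT and 1076 of the 1280 in no_transgene, so pooled values mostly reflect that replicate. These intervals leave out the spread between the 2 libraries of a group. On the log2(RPKM + 1) scale, which understates differences of low genes, Hes1 differed by −2.22 ± 0.27 from no_transgene (SE, n = 2 per group), by −2.25 ± 0.27 from dCTT and by −1.13 ± 0.27 from mSTING. These 3 comparisons share the zfCTT libraries.

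**Figure D1:**
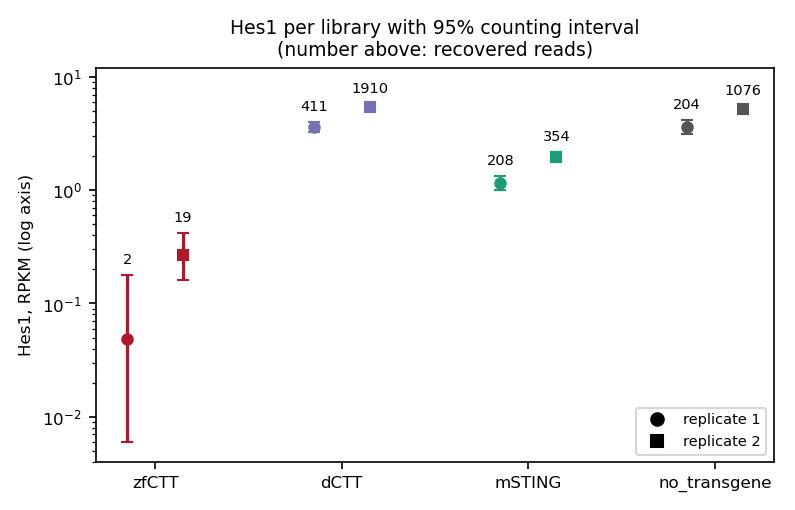
Hes1 in RPKM on a log axis for each library (circle, replicate 1; square, replicate 2), with bars for the 95% counting interval and the number of recovered reads above. The zfCTT libraries hold 2 and 19 reads and sit below every other library, and the mSTING libraries, at 1.16 and 1.97 RPKM, sit between zfCTT and the other groups.

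Comparisons among dCTT, mSTING and no_transgene do not use the zfCTT means, and Hes1 was tested in them. The spread used in these tests came from all 8 libraries, zfCTT included, so they are not fully free of how Hes1 was picked. With mSTING it averaged 1.56 ± 0.575 RPKM (SD, n = 2) and without transgene 4.42 ± 1.14, a log2 difference of −1.08 ± 0.27 (limma, unadjusted p = 0.00579, adjusted p = 0.840 over 13475 genes). With dCTT it averaged 4.55 ± 1.31 RPKM, against 1.56 ± 0.575 with mSTING, a log2 difference of 1.11 ± 0.27 (unadjusted p = 0.00505, adjusted p = 1). In both cases the libraries of the 2 groups did not overlap, and neither difference passed the test over all genes. Between dCTT and no_transgene the log2 difference was 0.03 ± 0.27 (limma, adjusted p = 1), and its sign turned without dCTT replicate 2 (−0.21) or no_transgene replicate 1 (−0.19). Limma called 0.0% of genes in each of these 3 comparisons.

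Hes1 was lower in replicate 1 than in replicate 2 in all 4 groups, as were Hey1, Notch1, Jag1 and Dtx4. Among all 13475 tested genes 17.3% had this order and 14.3% the opposite one, which Notch2 showed. The spread within groups thus ran with the replicate number for 6 of the 9 members. Hey1 and Jag1 were too low to be tested. Of the 5 tested members, which match those shares, 3 had the first order and 1 the opposite one.

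In zfCTT and mSTING, Hes1 ran opposite to Cxcl10, an interferon-inducible chemokine gene named here with its values known. Cxcl10 read 1275 and 734 RPKM with zfCTT and 335 and 68.9 with mSTING. Over these 4 libraries, in the order zfCTT replicate 1, zfCTT replicate 2, mSTING replicate 1 and mSTING replicate 2, Cxcl10 was lower and Hes1 higher at each step. The steps within a group follow the replicate order that Hes1 showed in all 4 groups. In dCTT and no_transgene Cxcl10 was at 0.614 to 1.19 RPKM, and Hes1 was at its highest. There, from replicate 1 to replicate 2, Cxcl10 rose with Hes1 in dCTT (0.909 to 1.19) and fell in no_transgene (0.657 to 0.614). A relation between these genes was not tested.

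The other classical targets among the members were close to silent in all cells. Hey1 (chromosome 3) read 0.0305 and 0.0528 RPKM with zfCTT, 0.0275 and 0.0858 with dCTT, 0 and 0.0278 with mSTING and 0.0221 and 0.0847 without transgene. These come from 0 to 48 reads a library, and the 0 of mSTING replicate 1 allows up to 0.0104 RPKM (3 reads). Nrarp (chromosome 2) had 0 and 1 read with zfCTT, 9 and 13 with dCTT, 9 and 8 with mSTING and 3 and 7 without transgene. In RPKM Nrarp was at 0 and 0.0111 with zfCTT and between 0.0268 and 0.0626 elsewhere, and the counting intervals overlap. The limit that 0 reads allow in zfCTT replicate 1 is 0.0579 RPKM, above the level of 5 of the 6 other libraries, so a lower level was not detectable in that library. In zfCTT replicate 2 the limit of 3 reads is 0.0334 RPKM, and the interval of its 1 read reaches 0.0620 RPKM. Reads of Nrarp are also uncertain because 79.4% of its exonic length is shared with Gm38287 on the opposite strand, and no strand setting is given. Neither gene reached 1 RPKM in any library, so neither was tested.

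Among the receptors, Notch1 was low in both groups with a tailed STING and Notch2 was not. Notch1 (chromosome 2, 26457903 to 26516663, minus strand) read 0.340 and 0.796 RPKM with zfCTT, 1.64 and 2.53 with dCTT, 0.530 and 0.702 with mSTING, and 1.56 and 1.96 without transgene. The zfCTT and mSTING libraries overlap and all 4 lie below the other 4. The log2 difference was −0.83 ± 0.23 for zfCTT over no_transgene, given without a test because Hes1 was picked in that comparison. It was −0.98 ± 0.23 for zfCTT over dCTT (limma, adjusted p = 0.126) and −0.06 ± 0.23 for zfCTT over mSTING (adjusted p = 0.930). For mSTING over no_transgene it was −0.77 ± 0.23 (unadjusted p = 0.0128, adjusted p = 0.840), and for dCTT over mSTING 0.92 ± 0.23 (unadjusted p = 0.00557, adjusted p = 1). None of these passed over all genes. Notch1 reached the 1 RPKM filter through dCTT and no_transgene alone, and with no filter its adjusted p for zfCTT over dCTT was 0.244. The value for zfCTT over mSTING turned to 0.15 without zfCTT replicate 1 and to 0.02 without mSTING replicate 2. Of the exonic length of Notch1, 7.50% is shared with 0610009E02Rik and 2.91% with Gm13568, both on the opposite strand.

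Notch2 (chromosome 3), the more abundant receptor, read 8.23 and 5.75 RPKM with zfCTT, 5.0 and 4.05 with dCTT, 6.05 and 4.81 with mSTING, and 4.91 and 4.00 without transgene. Both zfCTT libraries were above those of dCTT and no_transgene, and they overlapped with mSTING. The log2 difference was 0.54 ± 0.22 for zfCTT over no_transgene. It was 0.52 ± 0.22 over dCTT (limma, adjusted p = 0.404) and 0.30 ± 0.22 over mSTING (adjusted p = 0.581), and neither passed. Per kilobase, Notch2 therefore exceeded Notch1 in every library. Notch4 (chromosome 17) stayed between 0.0358 and 0.0999 RPKM, with the highest value in mSTING replicate 1 and the lowest in no_transgene replicate 1. Both mSTING libraries, at 0.0999 and 0.0844 RPKM, lay above the other 6, of which the highest was dCTT replicate 2 at 0.0825. Counting intervals of mSTING and dCTT replicate 2 overlap, and Notch4 was too low to be tested.

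Jag1, a Notch ligand on chromosome 2, read 0.205 and 0.390 RPKM with zfCTT, 0.170 and 0.216 with dCTT, 0.177 and 0.313 with mSTING and 0.186 and 0.248 without transgene. All groups overlapped, apart from zfCTT replicate 2, which was the highest value. Jag1 was under 1 RPKM throughout and was not tested.

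Rbpj (chromosome 5, 53466152 to 53657362, plus strand), the DNA-binding partner of all Notch receptors, was the most abundant member. It read 19.5 and 14.7 RPKM with zfCTT, 9.37 and 10.1 with dCTT, 11.8 and 10.9 with mSTING, and 12.1 and 10.3 without transgene. Both zfCTT libraries lay above the other 6. The log2 difference was 0.56 ± 0.19 over no_transgene, given as a description, and 0.75 ± 0.19 over dCTT (limma, adjusted p = 0.157) and 0.54 ± 0.19 over mSTING (adjusted p = 0.429), which did not pass.

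Dtx4 (chromosome 19) read 2.66 and 5.07 RPKM with zfCTT, 5.02 and 9.13 with dCTT, 4.51 and 8.71 with mSTING, and 5.75 and 9.38 without transgene. In each group replicate 2 was well above replicate 1, and zfCTT replicate 2 overlapped with replicate 1 of dCTT and mSTING. Both zfCTT libraries lay below both of no_transgene (−0.83 ± 0.43). The log2 difference was −0.73 ± 0.43 over dCTT (limma, adjusted p = 0.545) and −0.63 ± 0.43 over mSTING (adjusted p = 0.551), and neither passed.

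**Figure D2:**
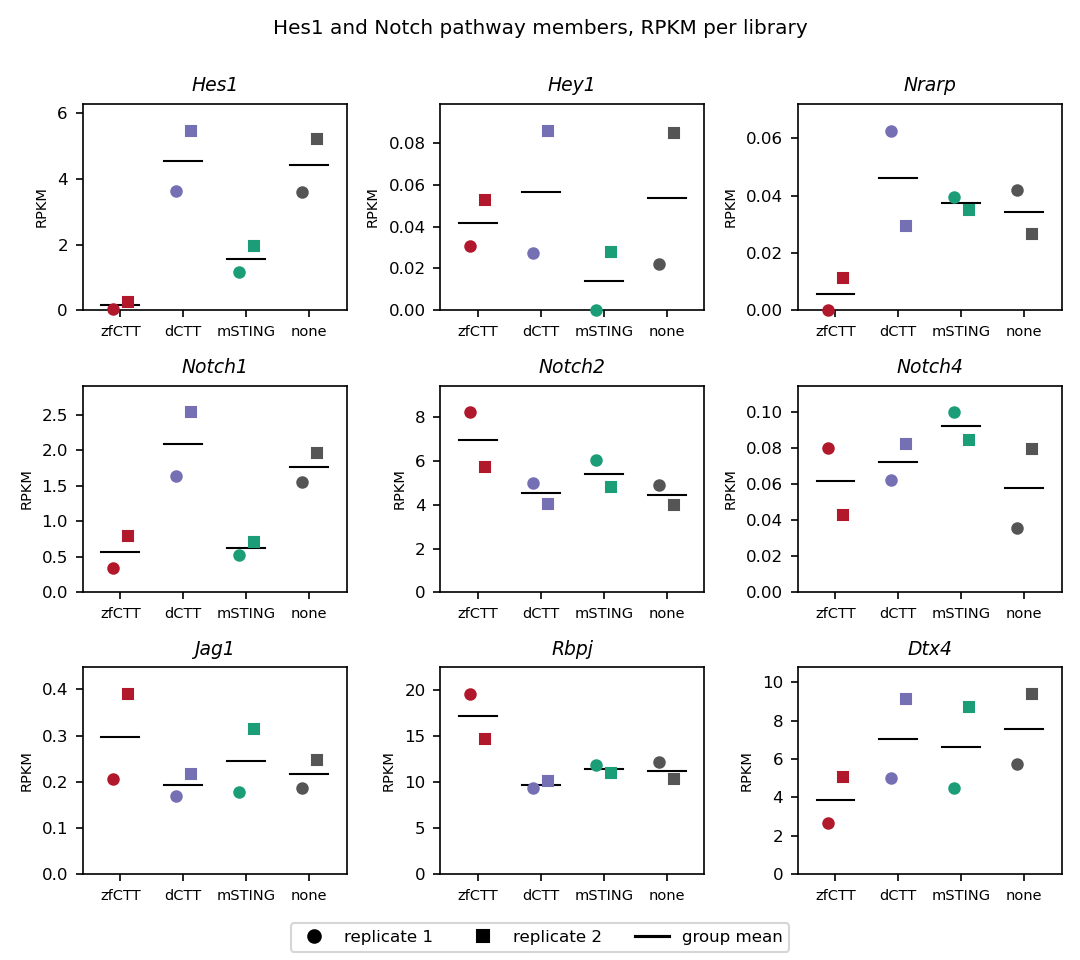
RPKM of the 9 members in each library (circle, replicate 1; square, replicate 2; line, group mean), with 1 panel per gene and a linear axis from 0. Hes1 and Notch1 are low in zfCTT and mSTING, Rbpj is highest in zfCTT, and Hey1, Nrarp and Notch4 stay at or under 0.0999 RPKM.

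A wider list of 69 Notch pathway genes, which holds the 9 members, placed them among receptors, ligands, cleavage enzymes, glycosyltransferases, ubiquitin ligases and endocytic adaptors, the nuclear complex, co-repressors and targets. Of these, 45 reached 1 RPKM in at least 2 libraries and were tested, 5 members among them. That filter admits a gene through the groups where it is high, as it did for Notch1. Hes1, picked on the zfCTT libraries, is left out of the counts that follow, which leaves 44 tested genes. For zfCTT over no_transgene limma called 0 of the 44, where it called 0.156% of all tested genes lower and 0.928% higher, 1.08% together. By limma 8 of the 44 had an unadjusted p under 0.05, beside 1808 of all 13475 genes. Voom called 0 of the 44, beside 48 of 13457 genes. The median log2 difference of the 44 was 0.0013, beside −0.04 over all tested genes. For zfCTT over dCTT limma called 0, where it called 0.171% of all genes lower and 0.913% higher (1.08% together). By limma 9 of the 44 had an unadjusted p under 0.05, beside 1709 of all 13475, and the median was −0.03 beside −0.02. Voom called 1 of the 44, Dtx3l, on rounded values that were not whole reads, beside 157 of 13457 genes. For zfCTT over mSTING limma called 0 of the 44 and 0.119% of all genes (0.111% higher and 0.00742% lower). By limma 7 of the 44 had an unadjusted p under 0.05, beside 1476 of all 13475. Voom called 0 of the 44, beside 8 of 13457 genes. Limma also called 0 for mSTING over no_transgene, 0 for dCTT over mSTING and 0 for dCTT over no_transgene, and voom called 0 in each. In that order, 3, 4 and 0 of the 44 had an unadjusted p under 0.05 by limma, beside 467, 336 and 36 of all 13475.

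By position, both zfCTT libraries were above both no_transgene libraries for 11 of the 44 and below them for 12. The same held for 18.8% and 20.8% of all tested genes. For zfCTT over dCTT the counts were 12 above and 16 below (20.1% and 24.7% of all genes), and for zfCTT over mSTING 11 and 13 (24.9% and 24.4%). For mSTING over no_transgene they were 9 and 7 (15.3% and 17.0%), for dCTT over mSTING 7 and 9 (16.2% and 12.8%), and for dCTT over no_transgene 5 and 1 (7.75% and 6.69%). By role, receptor glycosylation genes had negative differences in 4 of 5 (median −0.53) and genes of the nuclear complex positive ones in 5 of 8 (median 0.17) for zfCTT over no_transgene. Neither group had a gene past the threshold. Of the cleavage genes 5 of 8 were positive, of the ubiquitin and endocytosis genes 5 of 10 and of the co-repressors 5 of 9. Jag2, the 1 ligand tested, was negative, and the 2 receptors differed in sign. Hes6, the 1 gene of the target list tested beside Hes1 and not a classical target, was negative.

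Beside Hes1, the pathway genes with the largest differences for zfCTT over no_transgene were Dtx3l and Adam17. Dtx3l, a Deltex-family ubiquitin ligase that pairs with Parp9 and is known as an interferon-inducible gene, read 10.4 and 7.52 RPKM with zfCTT, 1.61 and 1.26 with dCTT, 4.99 and 2.33 with mSTING, and 2.22 and 1.20 without transgene. Both zfCTT libraries lay above both mSTING libraries, which lay above all others, the mirror of the order of Hes1. The log2 difference was 1.89 ± 0.34 over no_transgene, 2.02 ± 0.34 over dCTT (limma, adjusted p = 0.0542) and 1.14 ± 0.34 over mSTING (adjusted p = 0.386). With mSTING it was 0.75 ± 0.34 over no_transgene (adjusted p = 0.840), and for dCTT over mSTING −0.88 ± 0.34 (adjusted p = 1). For zfCTT over dCTT it was past the threshold by limma among protein-coding genes (adjusted p = 0.0155) and by voom (0.0429). The recovered values of Dtx3l were not whole reads in any library, so voom ran on rounded values for this gene. Of its exonic length 8.0% is shared with Parp9 on the opposite strand.

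Adam17, the protease that can make the first cut in a Notch receptor and that also sheds TNF, read 18.7 and 13.6 RPKM with zfCTT, 7.80 and 8.51 with dCTT, 10.3 and 8.61 with mSTING, and 7.80 and 8.64 without transgene. The log2 difference was 0.88 ± 0.20 over no_transgene and 0.89 ± 0.20 over dCTT (limma, adjusted p = 0.116). Rfng, a Fringe glycosyltransferase, was the third largest for zfCTT over mSTING at −0.85 ± 0.37 (adjusted p = 0.465). For dCTT over no_transgene the largest were Snw1 at −0.43 ± 0.52 and Rfng at 0.36 ± 0.37, both at adjusted p = 1 by limma. The values of Snw1 and Rfng changed sign without no_transgene replicate 1, to 0.37 and −0.12, and 44.3% of the exonic length of Snw1 is shared with Slirp on the opposite strand. Hes6, a relative of Hes1 that is not a classical Notch target, read 3.59 and 5.39 RPKM with zfCTT, 7.14 and 10.3 with dCTT, 6.43 and 8.88 with mSTING, and 6.52 and 11.5 without transgene.

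**Figure D3:**
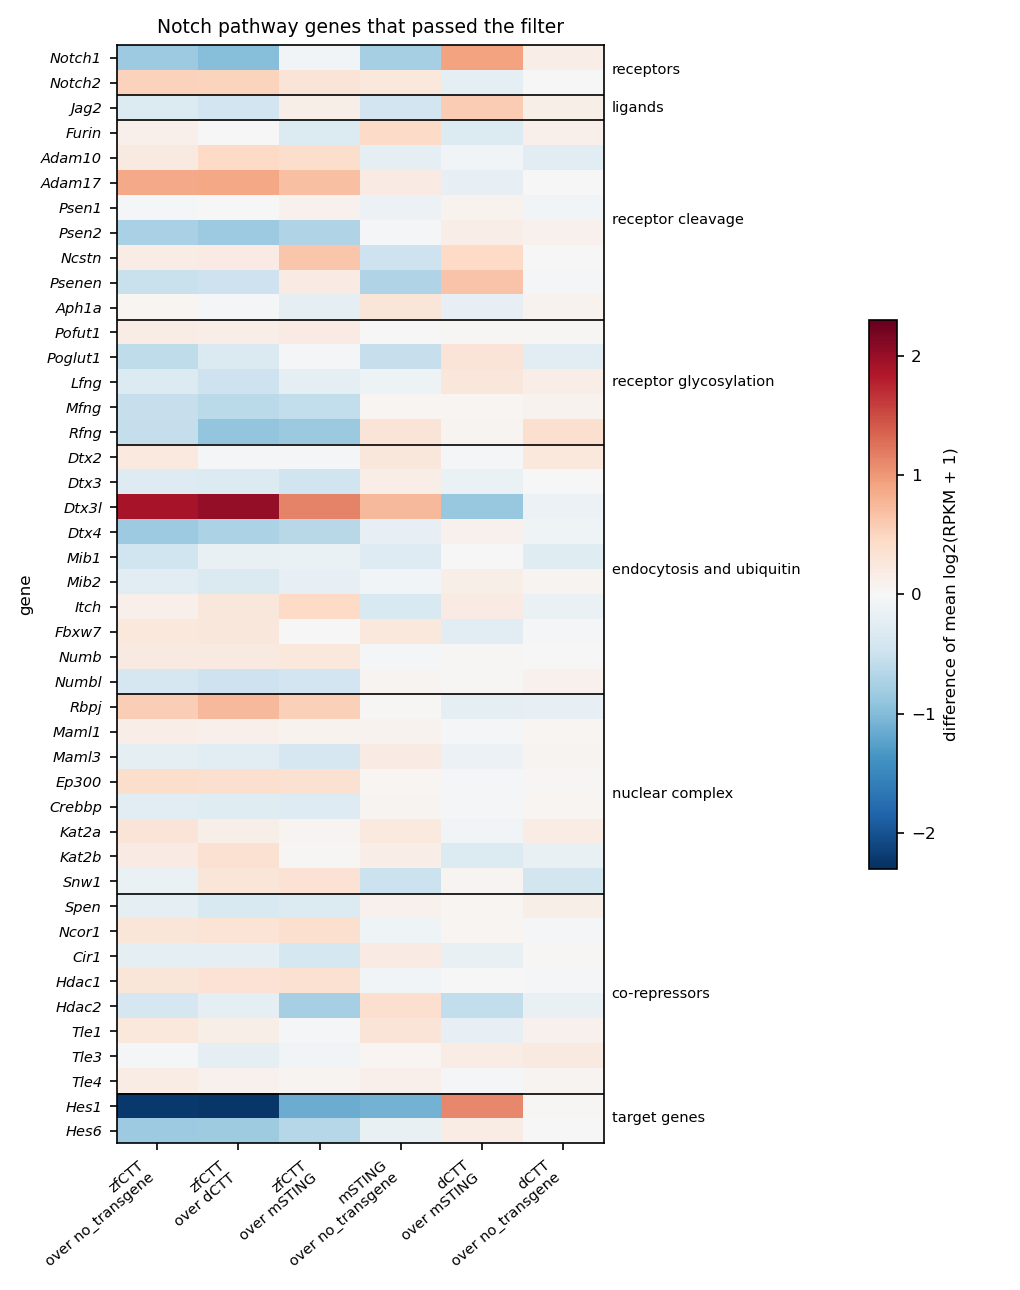
Difference of mean log2(RPKM + 1) for the Notch pathway genes that passed the filter (rows, by role; 1 of the 45 is not drawn) in 6 comparisons (columns); red is higher and blue lower in the group named first. Hes1 (−2.22 in the leftmost column) and Dtx3l (1.89) are the darkest rows, and most other genes are near 0.

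Ligand transcripts divided into 1 abundant and several rare ones. Jag2 read 17.7 and 16.9 RPKM with zfCTT, 25.2 and 22.3 with dCTT, 14.7 and 16.5 with mSTING, and 21.3 and 22.0 without transgene, so that both tailed groups lay below both others. Jag2 passed in none of the comparisons. By limma its adjusted p was 0.328 for zfCTT over dCTT and 0.840 for mSTING over no_transgene. Dll1, chosen for naming after its values were seen, had 14 and 47 reads with zfCTT and 77 and 8 with mSTING, against 0 in all 4 libraries of dCTT and no_transgene. Its RPKM was 0.165 and 0.320 with zfCTT and 0.207 and 0.0215 with mSTING. Set against 3 reads per library, Dll1 was at least 14.9-fold higher with zfCTT and at least 7.0-fold higher with mSTING than without transgene. The bound for mSTING rests on replicate 1: it was 1.32-fold without it, and 12.7-fold without mSTING replicate 2. Without no_transgene replicate 1 or 2 it was 16.3-fold or 4.46-fold, and that for zfCTT 34.6-fold or 9.47-fold. Of its exonic length 20.6% is shared with A930024N18Rik on the opposite strand, which had 3 and 10 reads with zfCTT, 14 and 1 with mSTING and 0 elsewhere. Reads of these 2 genes cannot be fully separated, and Dll1 was too low to be tested. Dll3, Dll4 and Dlk2 stayed at or under 0.154 RPKM, and Dlk1 was at 0 in all 8 libraries.

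Of the 3 cytokine genes listed because Hes1 is known to restrain them, Il12b alone was abundant in any group. Il12b, which encodes a subunit of IL-12 and IL-23, read 5.20 and 7.01 RPKM with zfCTT, 0 and 0 with dCTT, 0 and 0.0115 with mSTING, and 0 in both libraries without transgene. Set against 3 reads per library, Il12b was at least 174-fold higher with zfCTT than without transgene (405-fold or 111-fold without no_transgene replicate 1 or 2), and mSTING replicate 2 held 2 reads. Il6 had 6 and 2 reads with zfCTT, 2 and 0 with dCTT, 4 and 2 with mSTING, and 3 and 1 without transgene, and at such counts no difference could be detected. Cxcl1 was listed at 0 in all 8 libraries.

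**Figure D4:**
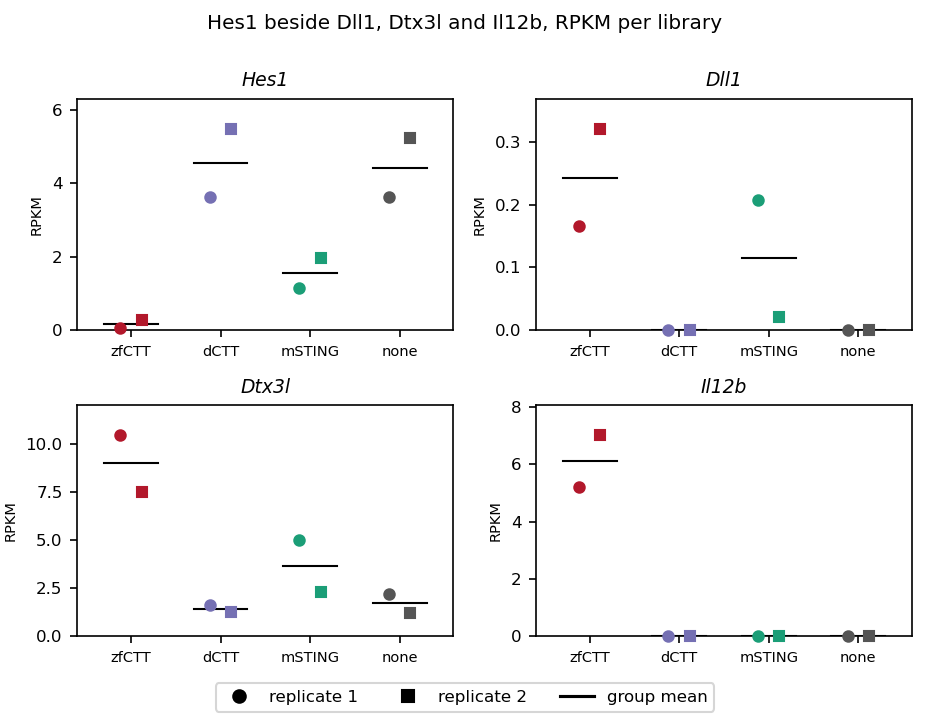
RPKM per library of Hes1, Dll1, Dtx3l and Il12b (circle, replicate 1; square, replicate 2; line, group mean; linear axes from 0). Hes1 is lowest and Dtx3l highest in zfCTT with mSTING between, Dll1 has reads in zfCTT and mSTING alone, and Il12b stands at 5.20 and 7.01 RPKM in zfCTT.

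Across the 8 libraries, the 5 named genes whose log2(RPKM + 1) values tracked Hes1 most closely, of 13474 others, were Tmem37 (Pearson r = 0.987), Asb10 (0.979), Zfp46 (0.978), Etv5 (0.977) and Rassf2 (0.977). These are descriptions over 8 libraries that share their groups and replicate numbers. Tmem37 read 0.266 and 0.965 RPKM with zfCTT, 5.48 and 6.96 with dCTT, 2.16 and 3.24 with mSTING, and 6.85 and 7.13 without transgene, the same order of groups as Hes1. Etv5, an ETS-family transcription factor, read 7.51 and 9.93 RPKM with zfCTT, 20.9 and 22.0 with dCTT, 13.2 and 18.4 with mSTING, and 20.1 and 23.8 without transgene. Of the Notch pathway genes, Notch1 was the most like Hes1 (r = 0.904, rank 232) and Dtx3l the least (r = −0.983). Rbpj and Notch2 also ran against Hes1, at r = −0.874 and −0.902.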

How the data were processed

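The authors deposited 1 table of RPKM values, with 53715 genes in rows and 8 libraries in columns. The submitters' processing notes list Cutadapt 1.16 and HISAT2 2.1.0 and the builds GRCm38 and mm10; a read counter, an annotation release and a strand setting were not found in the labels. Groups follow the transgene label and replicate numbers the titles. Symbols, coordinates and exon lengths were taken from GENCODE (GRCm38), where 53620 identifiers had a symbol. RPKM times exon length lay within 0.05 of a whole multiple of 1 step for 95.0% to 95.6% of nonzero values, which gave depth and reads. For Dtx4 and Dtx3l, among others, it did not, and no reads are given. Voom used the recovered values rounded to whole numbers, these genes included. Limits for 0 are 3 reads, and intervals and limits cover counting error only.

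Limma 3.58.1 (R 4.3.3) was applied to log2(RPKM + 1) of 13475 genes that reached RPKM 1 in 2 or more libraries. All 8 libraries entered 1 fit with an intensity trend and 4 residual degrees of freedom, and 6 comparisons were tested, two-sided, with Benjamini-Hochberg adjustment at 0.05 over all genes. The fit was also run on simulated data with 1 noise level for all genes. Only genes that averaged RPKM 5 or more were changed there, so that run does not cover Hes1 and Notch1, which average less. Alternatives were other pseudocounts, filters and scaling, voom on recovered reads, protein-coding genes alone, the replicate number as a block and libraries left out.

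The members and lists were chosen with earlier results of these data known. Named are the 9 members, pathway genes past the threshold, the 3 with the largest differences in each comparison, the 5 genes most like Hes1, and Il6, Il12b and Cxcl1; other genes were named with their values known. A gene that this rule names is not reported here.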

Additional observations from a re-analysis of the deposited data

How the results depend on the processing

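Hes1 was lower in zfCTT than in each other group under the alternatives that gave it a value, with sizes that moved with the scale; at a mean of 5 RPKM it left the table and could not be called. Its log2 difference from no_transgene was −4.25 and −2.90 with pseudocounts of 0.1 and 0.5 and −5.00 by voom on recovered reads, from mSTING −2.79, −1.64 and −3.39, and from dCTT −4.28, −2.93 and −5.02. With 1 library left out, or replicate 1 of zfCTT, dCTT and no_transgene together, it ran from −2.43 to −2.00 over no_transgene, −1.37 to −0.90 over mSTING and −2.49 to −2.00 over dCTT. For mSTING over no_transgene it ran from −1.31 to −0.85, for dCTT over mSTING from 0.87 to 1.35, and for dCTT over no_transgene from −0.21 to 0.27, with −0.21 and −0.19 where the sign turned. Signs also turned for dCTT over no_transgene in Notch1 (−0.059 to 0.36), Snw1 (−1.23 to 0.37, and 0.10 without the 3 libraries) and Rfng (−0.12 to 0.85), and for zfCTT over mSTING in Notch1 (−0.27 to 0.15, and 0.02 without mSTING replicate 2).

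Counts of genes past the threshold depended on the setting, and the cause was not tested. For zfCTT over no_transgene 146 genes passed, against 34 with no filter, 64 where genes averaged RPKM 5 or more, 48 by voom and 354 among protein-coding genes. For zfCTT over dCTT 146 passed, against 28, 61 and 348 with no filter, the mean of 5 and protein-coding genes. For zfCTT over mSTING 16 passed, against 0 with pseudocount 0.1, 29, 2, 8 by voom and 63. For mSTING over no_transgene 0 passed, against 11 and 1 with pseudocounts 0.1 and 0.5, 12 with no filter and 6 among protein-coding genes, and for dCTT over mSTING 0, against 3 with pseudocount 0.1, 14 and 6. With libraries left out, counts ran from 0 to 144 for zfCTT over no_transgene, 0 to 148 for zfCTT over dCTT, 0 to 5 for zfCTT over mSTING, 0 to 16 for mSTING over no_transgene, 0 to 10 for dCTT over mSTING and stayed at 0 for dCTT over no_transgene. From counts of the Notch pathway list Hes1 is left out, because it was picked on the zfCTT libraries. For zfCTT over no_transgene 0 other genes of the list passed, as with no filter, at the mean of 5 and by voom. Among protein-coding genes 1 passed, Dtx3l. For zfCTT over dCTT 0 passed, as with no filter and at the mean of 5. Voom called 1, Dtx3l, and limma called 2 among protein-coding genes, Dtx3l and Notch1 (adjusted p = 0.0490). Notch1 reached the filter through dCTT and no_transgene alone, so its call against dCTT is tied to that filter.

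With the replicate number as a block, limma called 432 of 13475 genes for zfCTT over no_transgene, 409 over dCTT and 44 over mSTING. Of the 44 pathway genes tested beside Hes1 it called 4 over no_transgene: Notch1, Dtx4, Dtx3l and Hes6. Over dCTT it called 2, Notch1 and Dtx3l (adjusted p = 0.0358 and 0.0125), and over mSTING 0. The filter limit of Notch1 applies here too. The labels do not say that a number marks a shared culture or day. Deviations of same-numbered libraries correlated at 0.0318 to 0.762 between groups. Depth limits Hey1, Nrarp, Dll1 and Il6, which rest on few reads in zfCTT.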
